A study of Mus musculus with 14 samples.

Results

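The genes described here are 35 genes of mitochondrial fatty acid oxidation and its control, chosen by gene symbol from the 49315 genes counted in mouse heart. They comprise the carnitine shuttle, the acyl-CoA dehydrogenases, the later enzymes of the beta-oxidation spiral, the enzymes for unsaturated chains, the electron transfer flavoprotein, fatty acid delivery and lipid droplet proteins, acyl-CoA thioesterases and regulators of fuel choice. Each symbol matched 1 row, and all 35 passed the filter on low counts. Hearts came from male wild-type (WT) C57BL/6 mice on standard chow, an inbred strain, with no treatment or transgene, and RNA was taken from pulverised tissue. There were 4 RNA-seq libraries at 12 weeks of age and 4 at 68 weeks. The series also holds CUT&RUN region lists for the histone mark H3K27me3 at both ages. Whether each library is a different mouse is not given in the labels, and p-values therefore cover only the spread between these libraries, which may be technical.

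The adult heart draws most of its ATP from fatty acids. Fatty acids are bound in the cytosol by FABP3, activated to acyl-CoA, passed into mitochondria as carnitine esters, shortened by the beta-oxidation spiral, and the electrons are handed to the respiratory chain through the electron transfer flavoprotein and its dehydrogenase. Malonyl-CoA made by ACACB blocks the first carnitine step, MLYCD degrades malonyl-CoA, PDK4 switches off pyruvate dehydrogenase and thereby glucose oxidation, and PPARα is the nuclear receptor that switches on many of these genes when fatty acids are plentiful.

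The libraries held 23599296 to 34599121 counts. All 12 cardiomyocyte markers were present in every library, and 0 of 12 were called by edgeR. Of the 12, 10 had a log2 fold change (68 minus 12 weeks) above 0, with a median of 0.09. In 2 of them, Actc1 (0.55) and Tnnt2 (0.16), all 68-week libraries were higher than all 12-week libraries, against 6.26% of all genes. Of 10 fibroblast markers 7 were below 0, and 1, Col1a1 (-0.73), was called lower by edgeR. Summed markers of airway epithelium were high in 3 of 4 libraries at 12 weeks and in 1 of 4 at 68 weeks, at 1889, 1009, 602 and 66.1 CPM of total counts at 12 weeks and 31.3, 19.3, 1132 and 26.6 CPM at 68 weeks (replicates 1 to 4). Of 19 tested markers 18 had a log2 fold change below 0, with a median of -1.70, and 0 were called by edgeR. Ucp1, the uncoupling protein of brown fat, ranged from 65.3 to 369 CPM at 12 weeks and from 0.867 to 54.8 CPM at 68 weeks, so its levels at the 2 ages did not overlap. Summed brown adipocyte markers stood at 1363 to 1729 CPM and at 1088 to 1177 CPM, with 9 of 9 tested below 0 and 2 called lower by edgeR. Most of this sum came from Cox7a1 (means of 573 and 498 CPM at 12 and 68 weeks) and Cox8b (495 and 456 CPM). Summed white adipocyte markers stood at 6298 to 6715 and at 4598 to 5549 CPM, and 4 of 11 tested were called lower by edgeR. Most of this sum came from Lpl (means of 5350 and 4772 CPM). These few genes therefore set most of the level of both sums, which are not a measure of adipocyte content. They differed less between the ages than more specific markers did. Log2 fold changes were -0.20 for Cox7a1, -0.12 for Cox8b and -0.16 for Lpl, against -2.56 for Ucp1. Of the 11 white markers tested 10 were below 0. The 4 called, Adipoq, Car3, Cfd and Cidec, had log2 fold changes from -1.95 to -1.71. The part of these cell types in the results was not tested beyond the fits with a marker score given beside them. The brown adipocyte sum and Ucp1 did not overlap between the ages, so fits with either as a covariate hardly separate age from it. A lost call or changed sign in those fits decides little. In bulk tissue, fewer cells of a type and less RNA per cell cannot be told apart.

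None of the 35 genes passed the test for a difference between 12 and 68 weeks. With edgeR's quasi-likelihood test and Benjamini-Hochberg adjustment over 15947 genes, 0 of 35 had an adjusted p under 0.05, against 2.83% of all genes tested. At an unadjusted p under 0.05 there were 5 of 35 (Acad11, Mlycd, Pdk4, Ppara and Ucp3), not far from the 19.0% of all genes. The log2 fold changes, 68 minus 12 weeks, ran from -0.73 (Pdk4) to 0.38 (Acads), with a median of 0.00 against -0.01 for all genes. Of the 35, 17 were below 0, near the 52.1% of all genes.

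How far a difference could hide behind the spread was read from the 95% interval of each log2 fold change. For 30 of the 35 genes the whole interval lay within 1.5-fold in either direction, and for 11050 of the 15947 genes tested it did so. The 5 others were Acads, Acot1, Pdk4, Ucp2 and Ucp3. Among the 14 enzymes of the spiral itself (the dehydrogenases, the later steps and the enzymes for unsaturated chains), 0 were called, the median was 0.06, and 13 intervals lay within 1.5-fold.

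**Figure D1:**
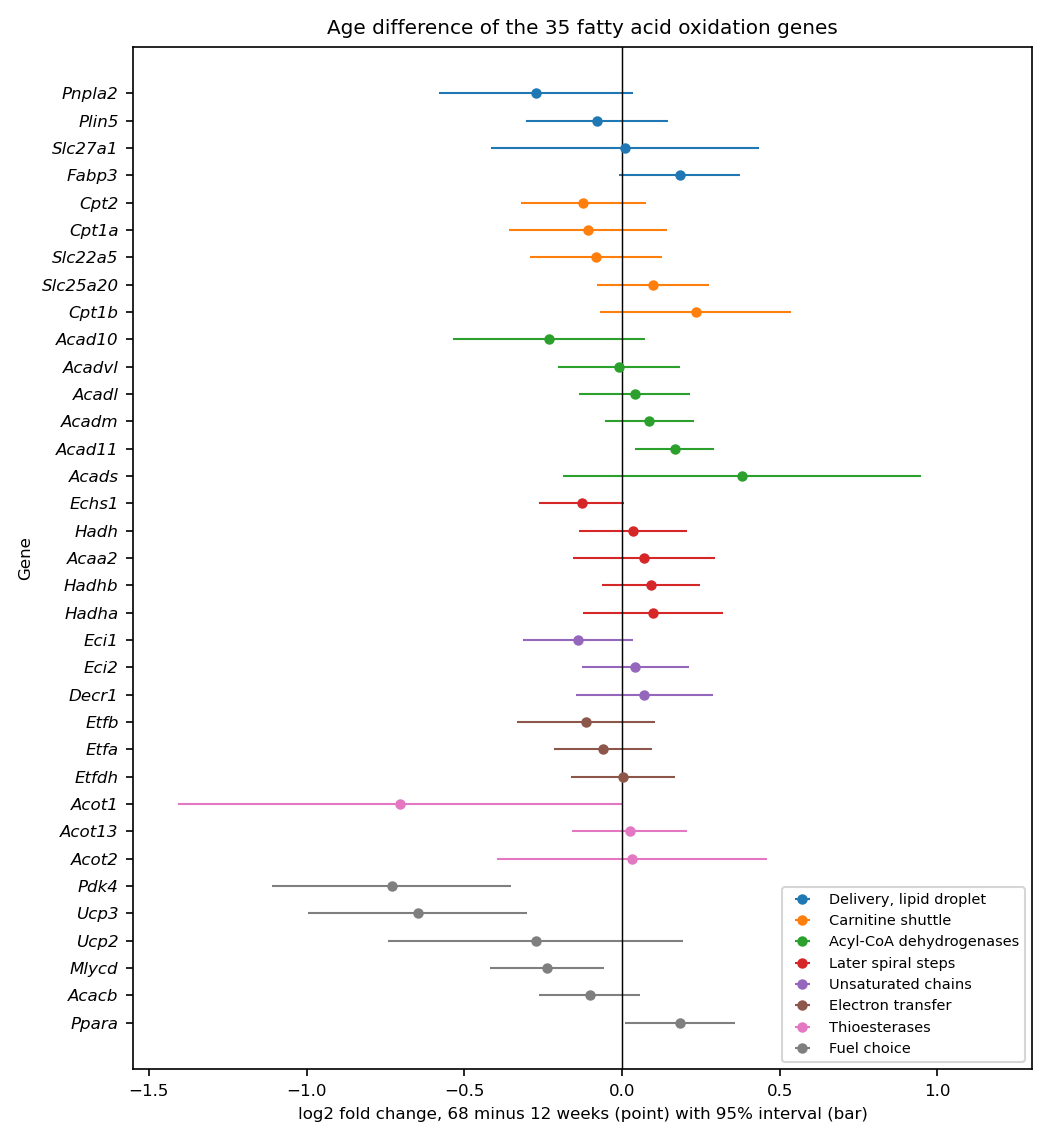
Log2 fold change (68 minus 12 weeks, x axis) of each of the 35 genes (y axis), coloured by role. Points are edgeR estimates from 4 libraries an age and bars their 95% intervals. Of the 35 intervals, 30 lie within 1.5-fold, and those of Pdk4 and Ucp3 lie wholly below 0.

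The steady levels of these genes differed far more between genes than between ages. Levels of different genes were compared on a scale of CPM per kb of exon. The comparison is rough, because the length counts all annotated exon bases of a gene and not those of the transcripts present. Fabp3 was highest at 2746 ± 312 at 12 weeks and 3117 ± 189 at 68 weeks (SD, n = 4). Acaa2 (500 ± 56.3 and 525 ± 63.2) and Acadl (498 ± 51.0 and 512 ± 31.4) followed, and those 2 did not differ beyond their spread. Acad10 was lowest at 0.989 ± 0.0899 and 0.845 ± 0.161 CPM per kb. Pdk4 was the fourth highest of the 35 at 12 weeks (316 ± 38.0) and the tenth at 68 weeks (190.5 ± 52.9). Cpt1b, the muscle form of carnitine palmitoyltransferase, stood at 39.0 ± 8.54 and 45.8 ± 2.63 CPM per kb, above the liver form Cpt1a at 19.6 ± 1.68 and 18.2 ± 3.08. Cpt1b shares 81.4% of its exon bases with Chkb on the same strand, so its level is uncertain.

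The regulators of fuel choice had the lowest median log2 fold change of the role groups, at -0.26. Of these 6 genes 5 were below 0, and 0 passed the edgeR test. Gene positions are those of the count tables, mm10 by label. Their values below are CPM (counts divided by the normalized library size), in replicates 1 to 4 of each age.

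Pdk4, pyruvate dehydrogenase kinase 4 (chr6:5483351-5496309), had the largest difference of the 35. It stood at 1056, 1268, 958 and 1158 CPM at 12 weeks and at 945, 568, 550 and 612 CPM at 68 weeks. All 68-week libraries lay below all 12-week libraries, but replicate 1 at 68 weeks was only just below the lowest 12-week library. The means were 1110 ± 133 and 669 ± 186 CPM (SD, n = 4), a ratio of 0.603, and the log2 fold change was -0.73 ± 0.17 (SE) with an edgeR adjusted p of 0.0539. DESeq2 called it lower with an adjusted p of 0.0231. Without 68-week replicate 1 it was -0.94 with an edgeR adjusted p of 0.00534. With the summed brown adipocyte markers as a covariate it was -0.48, edgeR adjusted p 0.634, and with Ucp1 as a covariate -0.78, adjusted p 0.366. Neither covariate overlapped between the ages, so these fits hardly separate age from it.

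Ucp3, a mitochondrial carrier whose level follows fatty acid supply in muscle (chr7:100472990-100486432), stood at 97.4, 81.2, 74.0 and 68.5 CPM at 12 weeks and at 60.6, 60.1, 45.6 and 38.9 CPM at 68 weeks. Here too the ages did not overlap. The means were 80.3 ± 12.5 and 51.3 ± 10.8 CPM (SD, n = 4), a ratio of 0.638, and the log2 fold change was -0.65 ± 0.16 with an edgeR adjusted p of 0.0616. DESeq2 called it lower with an adjusted p of 0.00107. With Ucp1 as a covariate it was -0.50, edgeR adjusted p 0.502, and with the airway score -0.62, adjusted p 0.261. Pdk4 and Ucp3 were the 2 of 35 whose libraries did not overlap and were lower at 68 weeks, against 5.86% of all genes, and the only 2 called by DESeq2, against 5.93% of the genes that DESeq2 tested.

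Because PPARα and related receptors bind copies of the hexamer AGGTCA, the 250 bases before the RefSeq gene start are shown for Pdk4 and Ucp3, the 2 genes called lower by DESeq2, and for Acadm, a PPARα target whose ages overlapped. They are written 5′ to 3′ on the gene's strand in build GRCm38.p6, with AGGTCA, or TGACCT where it lies on the other strand, in capitals. The windows are chr6:5496279-5496528 (minus strand), chr7:100472741-100472990 (plus) and chr3:153944644-153944893 (minus).
Pdk4: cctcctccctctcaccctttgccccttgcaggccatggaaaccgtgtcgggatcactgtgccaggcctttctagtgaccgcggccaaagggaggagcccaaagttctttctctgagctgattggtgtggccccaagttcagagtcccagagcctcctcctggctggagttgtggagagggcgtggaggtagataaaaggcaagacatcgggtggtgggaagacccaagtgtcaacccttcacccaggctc
Ucp3: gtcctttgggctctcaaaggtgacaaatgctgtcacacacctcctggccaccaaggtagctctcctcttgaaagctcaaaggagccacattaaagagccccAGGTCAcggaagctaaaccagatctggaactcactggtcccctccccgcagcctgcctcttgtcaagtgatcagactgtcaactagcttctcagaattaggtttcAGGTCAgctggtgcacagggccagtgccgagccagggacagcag
Acadm: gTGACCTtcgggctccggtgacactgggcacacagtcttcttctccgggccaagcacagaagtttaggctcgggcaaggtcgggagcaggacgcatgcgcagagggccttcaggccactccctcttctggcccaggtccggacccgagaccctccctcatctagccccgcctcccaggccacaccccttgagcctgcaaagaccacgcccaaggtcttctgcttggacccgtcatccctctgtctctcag

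The Ucp3 window holds AGGTCA at 149 and 44 bases before the start, the Acadm window holds it once on the other strand at 249 bases, and the Pdk4 window does not hold these letters. Of the 35 genes 31 matched a RefSeq promoter entry, and Acaa2, Acot13, Cpt1b and Decr1 did not. The hexamer, searched on both strands, occurred in the windows of 6 of the 31 (Acadm, Acadvl, Cpt1a, Echs1, Plin5 and Ucp3), and in 14.0% of 32851 promoter windows of the same length. The 31 genes had 34 windows, so the first count is per gene and the second share per window. The DR1 element, 2 copies of the hexamer with 1 base between them, occurred in 0 of the 31 and in 0.0335% of all windows. These matches describe letters and are not evidence of binding.

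Mlycd, malonyl-CoA decarboxylase, stood at 132, 144, 129 and 144 CPM at 12 weeks and at 135, 117, 107 and 106 CPM at 68 weeks. Replicate 1 at 68 weeks lay among the 12-week libraries and the 3 others lay below them. The log2 fold change was -0.24 ± 0.08 with an edgeR adjusted p of 0.152. Acacb, the mitochondrial acetyl-CoA carboxylase, stood at 689, 723, 701 and 760 CPM and then at 751, 689.6, 628 and 609.5 CPM, with overlapping ages and a log2 fold change of -0.10 ± 0.07 (edgeR adjusted p 0.477).

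Ppara stood at 72.2, 92.9, 86.9 and 83.1 CPM at 12 weeks and at 89.7, 101, 90.7 and 99.3 CPM at 68 weeks. At 12 weeks 3 libraries were below every 68-week library and replicate 2 was not. The log2 fold change was 0.18 ± 0.08 with an edgeR adjusted p of 0.241. Ucp2, the widely expressed neighbour of Ucp3, which begins 6.90 kb beyond it on chromosome 7, reached 142 and 166 CPM in replicates 3 and 4 at 12 weeks, against 84.0 to 112 CPM in the 6 other libraries. Its log2 fold change was -0.27 ± 0.21, edgeR adjusted p 0.512.

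**Figure D2:**
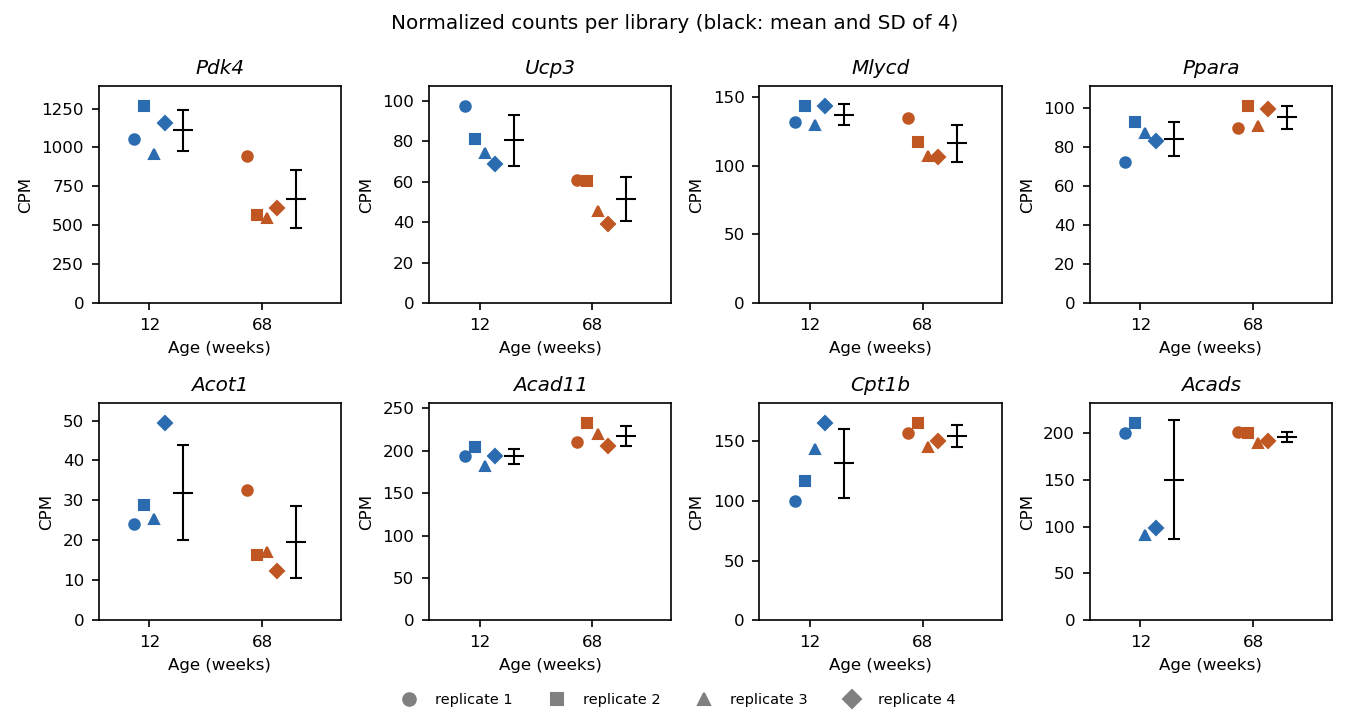
CPM (y axis) against age (x axis) for 8 genes, each symbol being a library and the black marks the mean and SD of 4. Pdk4 and Ucp3 show no overlap between the ages, and 12-week replicates 3 and 4 of Acads lie at 91.3 and 99.1 CPM, below the 6 other libraries.

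Of the 4 genes of fatty acid delivery and the lipid droplet, 0 passed the test. Fabp3, the cytosolic carrier, stood at 1890, 2284, 2423 and 2444 CPM at 12 weeks and at 2647, 2743, 2416 and 2456 CPM at 68 weeks. Its log2 fold change was 0.18 ± 0.09, with an edgeR adjusted p of 0.290. Pnpla2, the triglyceride lipase ATGL, stood at 359, 361, 405 and 558 CPM and then at 377, 366, 342 and 307 CPM. Its log2 fold change was -0.27 ± 0.14, edgeR adjusted p 0.320, and the 12-week spread came from replicate 4. Plin5, which coats lipid droplets next to mitochondria, had values of 126, 152, 155 and 154 CPM and of 163, 139.8, 120.2 and 132 CPM, with a log2 fold change of -0.08 ± 0.10 (edgeR adjusted p 0.712). Slc27a1, the transporter FATP1, ranged from 153 to 230.2 CPM and from 130.3 to 236 CPM, with a log2 fold change of 0.01 ± 0.19.

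The carnitine shuttle did not pass the test in any of its 5 genes. Cpt1b stood at 100.3, 117, 144 and 165 CPM at 12 weeks and at 157, 166, 145 and 150.4 CPM at 68 weeks. In 12-week replicates 1 and 2 it was lower than in the 6 other libraries. Those 2 libraries also had the lowest share of mitochondrially encoded counts, 7.41% and 8.07%, against 10.1% to 12.1% in the 6 others. Any link between this share and Cpt1b was not tested. The log2 fold change was 0.23 ± 0.14 with an edgeR adjusted p of 0.384, and Cpt1b shares 81.4% of its exon bases with Chkb on the same strand, so its count is uncertain. Without 12-week replicates 3 and 4, a fit chosen after the data were seen, it was 0.51 with an edgeR adjusted p of 0.0379, and with the airway score as covariate it was 0.06.

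Cpt1a stood at 84.1, 75.6, 84.4 and 93.2 CPM and then at 96.5, 77.4, 74.0 and 65.0 CPM, with a log2 fold change of -0.11 ± 0.11. Cpt2, on the inner membrane, stood at 241, 247, 238 and 298 CPM and then at 264, 237, 226 and 213 CPM, with a log2 fold change of -0.12 ± 0.09. The translocase gene Slc25a20 stood at 176, 187, 181 and 208 CPM and then at 221, 215, 186 and 183 CPM (0.10 ± 0.08). For these genes the ages overlapped throughout. Slc22a5, the plasma membrane carnitine transporter OCTN2, ranged from 30.9 to 38.1 CPM and from 27.4 to 37.2 CPM, with a log2 fold change of -0.08 ± 0.09.

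The acyl-CoA dehydrogenases carry out the first step of each turn of the spiral, each on its own range of chain lengths. Acadvl, for very long chains, stood at 698, 803, 753 and 889 CPM at 12 weeks and at 869.9, 794, 711 and 748 CPM at 68 weeks, a log2 fold change of -0.01 ± 0.09. Acadl stood at 903, 993, 955 and 1141 CPM and then at 1109, 1032, 957 and 1009 CPM (0.04 ± 0.08). Acadm, for medium chains, stood at 1022, 1086, 986 and 1111 CPM and then at 1172, 1183, 1064 and 1046 CPM (0.09 ± 0.06). In these 3 genes the ages overlapped and the edgeR adjusted p was 0.489 or more. Acadvl shares 42.9% of its exon bases with Dvl2 on the opposite strand, and whether strand entered the counts is not given in the sources used here.

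Acad11, which acts on longer chains and hydroxy acids, was the only gene of the 35 whose libraries did not overlap and were higher at 68 weeks, against 6.26% of all genes. It stood at 194, 204, 181 and 194 CPM and then at 210.2, 233, 219 and 206 CPM. The difference was small, at a ratio of 1.12 and a log2 fold change of 0.17 ± 0.06, with an edgeR adjusted p of 0.147. Acad10 stood at 6.00 ± 0.546 and 5.13 ± 0.976 CPM (SD, n = 4), a log2 fold change of -0.23 ± 0.14.

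Acads, the short-chain dehydrogenase, had the highest log2 fold change of the 35, and 2 libraries set it. It stood at 199.6, 211, 91.3 and 99.1 CPM at 12 weeks and at 201, 200.1, 189.6 and 192 CPM at 68 weeks. The log2 fold change over all 8 libraries was 0.38 ± 0.25, edgeR adjusted p 0.453, and without 12-week replicates 3 and 4 it was -0.07 with an adjusted p of 0.561.

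The same 2 libraries were low across the neighbourhood of Acads, examined after its values were seen. From Sppl3 (start 115011137) to Cox6a1 (end 115348981) on chromosome 5, a span of 338 kb, 13 of the 14 genes with a mean of at least 1 CPM lay below 0.75 of the median of the 8 libraries in both 12-week replicates 3 and 4. Their values relative to that median ran from 0.265 to 0.716, with medians of 0.535 and 0.506, while the lowest value in the 6 other libraries was 0.841. Mlec, for example, stood at 164, 176, 82.1 and 81.0 CPM at 12 weeks and at 159 to 168 CPM at 68 weeks. Msi1, the RNA-binding protein Musashi-1, which lies just beyond (115429599 to 115455698), was at 24.2 and 25.6 CPM in those libraries and at 0.288 to 0.795 CPM in the 6 others. The 20 other genes measured within 700 kb of Acads did not share the pattern, and over the genome 100 of 13514 genes at that level (0.740%) were low in both libraries.

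**Figure D3:**
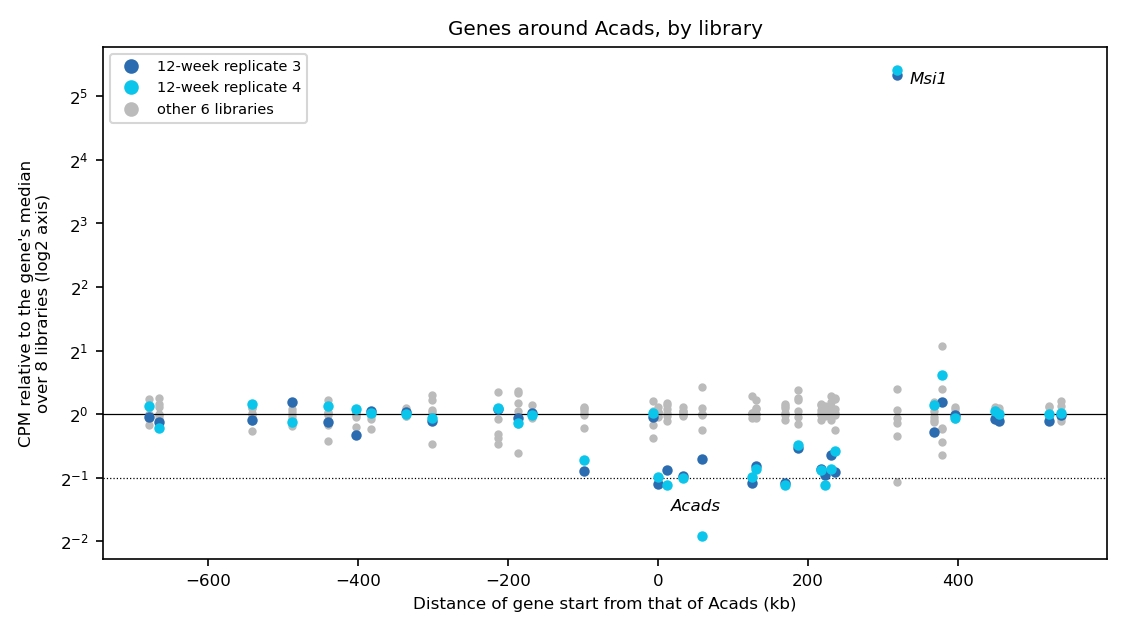
CPM relative to the gene's median over 8 libraries (y axis, log2 scale) against the distance of the gene's start from that of Acads in kb (x axis). Blue points are 12-week replicates 3 and 4 and grey points the 6 other libraries, and the run of 13 low genes ends before Msi1.

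Of the 5 genes of the later steps of the spiral, 0 passed the test. The trifunctional protein subunits Hadha and Hadhb, which lie 85 bases apart on chromosome 5 and point away from each other, stood at 1237 to 1627 and 1336 to 1576 CPM at 12 weeks. At 68 weeks Hadha stood at 1700, 1576, 1382 and 1350 CPM, and Hadhb ranged from 1434 to 1612 CPM. Both were highest in 68-week replicate 1 and lowest in 12-week replicate 1, with log2 fold changes of 0.10 ± 0.10 and 0.09 ± 0.07. Hadh (0.04 ± 0.08) and the thiolase gene Acaa2 (0.07 ± 0.10) were alike in size. Echs1, the short-chain enoyl-CoA hydratase, stood at 294 ± 20.4 and 269 ± 11.6 CPM (SD, n = 4), with a log2 fold change of -0.13 ± 0.06 and an edgeR adjusted p of 0.290.

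Eci1, Eci2 and Decr1, which rearrange or reduce double bonds, had log2 fold changes of -0.14 ± 0.08, 0.04 ± 0.08 and 0.07 ± 0.10. Etfdh, the membrane dehydrogenase that passes electrons to ubiquinone, stood at 652, 725, 660.3 and 786 CPM and then at 755, 736, 672 and 665 CPM, a log2 fold change of 0.00 ± 0.07. Etfa stood at 442, 496, 493 and 518 CPM and then at 491, 499, 427 and 452 CPM (-0.06 ± 0.07). Etfb was at -0.12 ± 0.10 and shares 58.2% of its exon bases with annotations on the same strand. The edgeR adjusted p of these 6 genes was 0.361 or more.

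Among the thioesterases, which split acyl-CoA back to free fatty acid and CoA, Acot1 had the widest interval of the 35. It stood at 24.2, 28.8, 25.3 and 49.4 CPM at 12 weeks and at 32.7, 16.4, 17.0 and 12.4 CPM at 68 weeks, and 3 of the 4 libraries at 68 weeks lay below every library at 12 weeks. The log2 fold change was -0.70 ± 0.31 with a 95% interval of -1.41 to 0.00 and an edgeR adjusted p of 0.263. With the brown adipocyte score as covariate its direction turned, at 0.57 with an edgeR adjusted p of 0.678. That score did not overlap between the ages, so the fit hardly separates age from it. Without 12-week replicate 4 it was -0.41, without 68-week replicate 1 it was -1.07, and with Ucp1 as covariate -0.22, none passing. Its neighbour Acot2, 15.6 kb away on chromosome 12 and a close paralog, stood at 121, 136, 148 and 217 CPM and then at 201, 168, 134 and 134 CPM (0.03 ± 0.19). Reads of the 2 could be split between them, so both counts are uncertain. Acot13 stood at 146 ± 15.0 and 148 ± 10.1 CPM (SD, n = 4).

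Ratios of opposing or alternative genes were taken within each library, as reads per kb of one over reads per kb of the other, and compared with two-sided exact permutation tests adjusted over the 4 ratios. The size of each ratio depends on the annotated exon lengths, but its comparison between the ages does not. With 4 libraries against 4 the smallest possible p is 0.0286. Acacb to Mlycd, synthesis against breakdown of malonyl-CoA, stood at 1.61, 1.55, 1.67 and 1.63 at 12 weeks and at 1.71, 1.82, 1.81 and 1.77 at 68 weeks. The ages did not overlap (1.62 ± 0.0487 against 1.78 ± 0.0468, SD, n = 4, exact p 0.0286, adjusted 0.114).

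Pdk4 to Pdk2, the starvation-induced over the constitutive kinase, stood at 3.11, 3.29, 2.31 and 2.77 and then at 2.59, 1.33, 1.502 and 1.76, with exact p 0.0571 and adjusted p 0.114. Here 68-week replicate 1 lay above 12-week replicate 3. Cpt1a to Cpt1b was 0.517 ± 0.0977 at 12 weeks and 0.397 ± 0.0617 at 68 weeks (SD, n = 4, exact p 0.0857, adjusted 0.114). This ratio is uncertain, because Cpt1b shares 81.4% of its exon bases with Chkb. Ucp2 to Ucp3 was 0.703 ± 0.326 and 0.892 ± 0.193 (exact p 0.314, adjusted 0.314). With the adjustment over 4 ratios, 1 ratio whose ages do not overlap cannot go below the adjusted p of 0.114 unless others also come near the smallest p, so these adjusted values say little about whether a ratio differed.

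**Figure D4:**
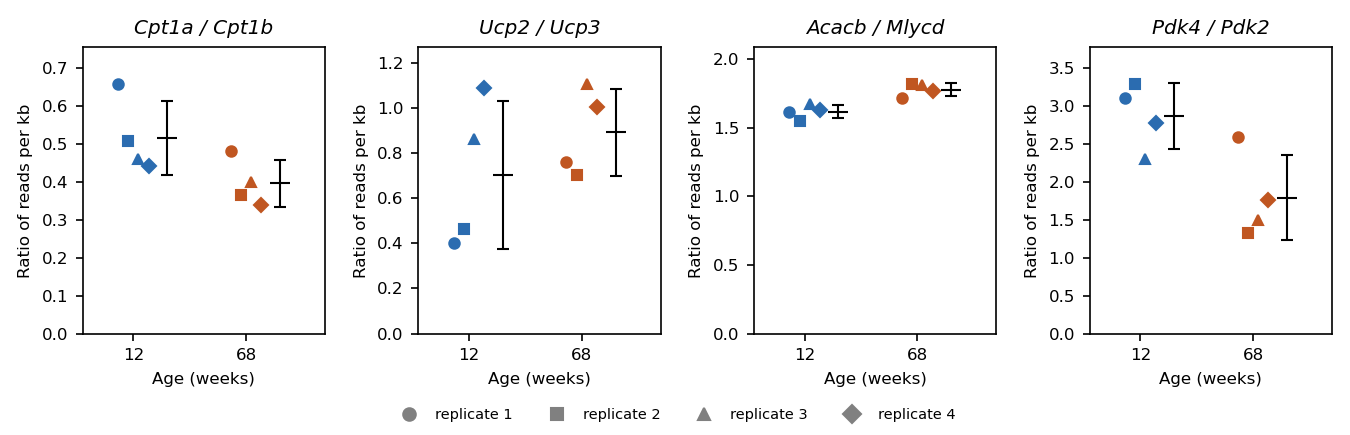
Ratio of reads per kb (y axis) against age (x axis) for 4 gene pairs, each symbol being a library and the black marks the mean and SD of 4. Acacb to Mlycd does not overlap between the ages, from 1.55 to 1.67 and from 1.71 to 1.82.

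Libraries of the same age differed in how many of the 35 genes stood high. The 12-week replicate 4 held the highest level of the 8 libraries for 13 genes and 68-week replicate 1 for 9, and in these libraries 31 and 29 of the 35 were above their own mean, against 50.8% and 50.1% of all genes tested with counts in every library. At the other end, 12-week replicate 1 held the lowest level for 14 genes and 68-week replicate 4 for 11. Single genes ran the other way, such as Ucp3, which was highest in 12-week replicate 1, and 12-week replicates 2 and 3 had 21 and 15 genes above their mean. The median deviation from the genes' means was -0.11, 0.02, -0.04 and 0.16 (log2) at 12 weeks and 0.13, 0.03, -0.11 and -0.10 at 68 weeks. The share of all counts taken by the 35 genes was 1.56%, 1.65%, 1.52% and 1.78% and then 1.74%, 1.60%, 1.48% and 1.45%, with both ages overlapping.

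Airway markers were high in 12-week replicates 1 to 3 and 68-week replicate 3, which held the highest level for 2, 4, 0 and 0 genes. They were low in the 2 libraries that held most of the highest levels. They were also low in 68-week replicate 2, which held 7 of the highest and 0 of the lowest. In 68-week replicate 4, which held 0 of the highest and 11 of the lowest, they were low too. With the summed airway markers as a covariate the median log2 fold change of the 35 genes was -0.13, and with the summed brown adipocyte markers it was 0.29, with 0 genes called by edgeR in either fit. The brown adipocyte sum did not overlap between the ages, so its fit hardly separates age from it. The part of other tissue in this pattern was not tested further.

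**Figure D5:**
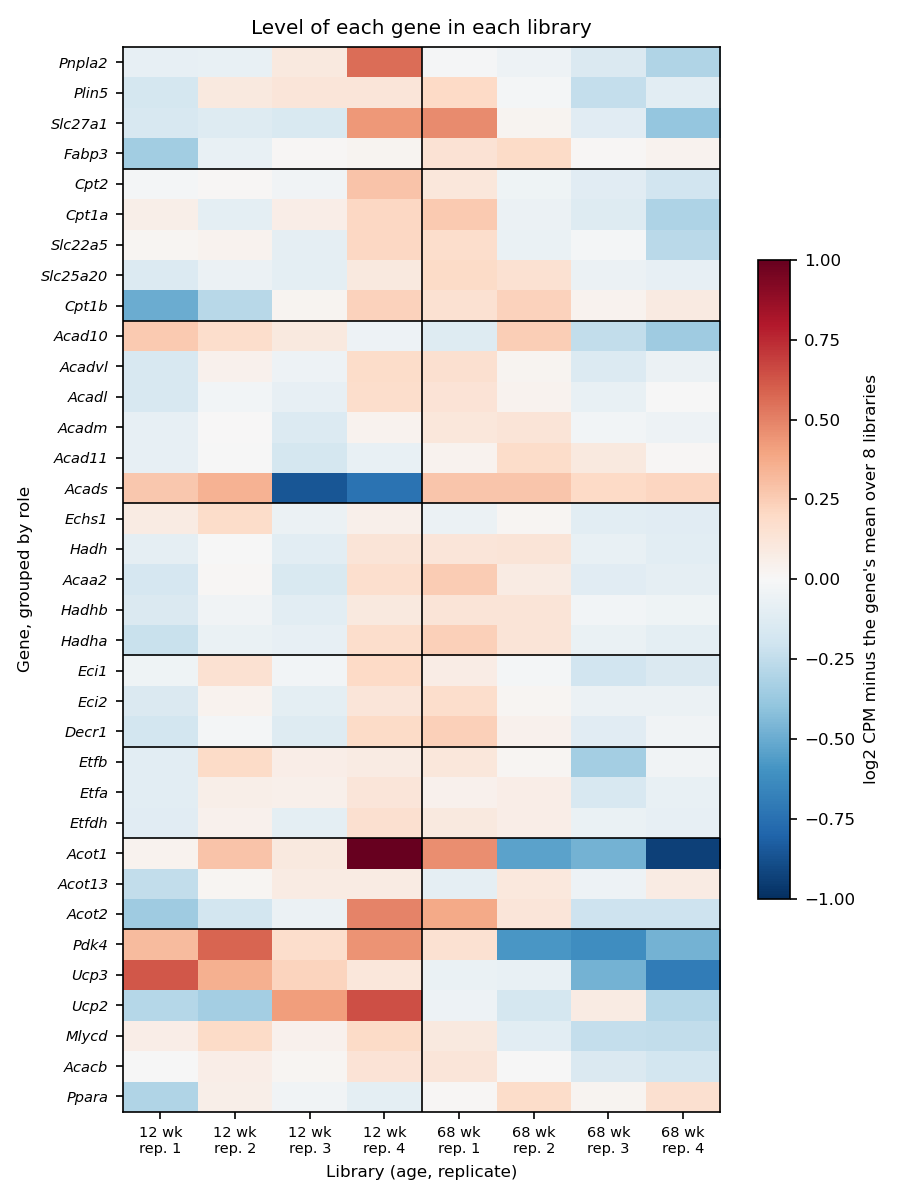
Log2 CPM minus the gene's mean over 8 libraries (colour) for the 35 genes grouped by role (rows) in each library (columns). Red columns at 12-week replicate 4 and 68-week replicate 1 mark the libraries with 31 and 29 of the 35 genes above their mean.

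Genes around the pathway were taken from 7 lists of 114 genes, of which 105 passed the filter. edgeR called 4 higher and 4 lower, against 2.83% of all genes. The lists were chosen with earlier results of these data known, so this comparison cannot show an excess of calls around the pathway. Ehhadh, the peroxisomal bifunctional enzyme and a PPARα target, fell from 30.3 ± 3.19 to 14.1 ± 1.84 CPM (SD, n = 4, log2 fold change -1.11 ± 0.10, edgeR adjusted p 0.0016). Acsl6, a long-chain acyl-CoA synthetase, rose from 14.2 ± 1.36 to 27.3 ± 1.88 CPM (0.95 ± 0.08, edgeR adjusted p 0.000829). Acsm5, a mitochondrial medium-chain acyl-CoA synthetase, rose from 6.15 ± 1.25 to 15.2 ± 3.33 CPM (1.31 ± 0.18, edgeR adjusted p 0.0084).

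These 3 and Prkab1, a regulatory subunit of AMPK (-0.33 ± 0.05, edgeR adjusted p 0.0147), were called whichever library was left out. The 4 others were called in 1 to 3 of the 8 fits that leave out a library. They were the PPARα target Angptl4 (-0.99 ± 0.20), the cytosolic acetyl-CoA carboxylase Acaca (-1.26 ± 0.26), the ATGL inhibitor G0s2 (0.60 ± 0.11) and the AMPK subunit Prkab2 (0.31 ± 0.06). With the airway score as a covariate edgeR called Acsl6 and Ehhadh of the 8, with Ucp1 the same 2 (adjusted p 0.0199 and 0.0411), and with the brown adipocyte score 0 of the 8 (adjusted p 0.184 or more). Ucp1 and the brown adipocyte score did not overlap between the ages, so calls lost in those fits decide little.

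By list, the 12 other PPARα targets tested had 2 lower and 0 higher with a median log2 fold change of -0.34. The 18 genes of malonyl-CoA and pyruvate dehydrogenase control had 2 lower and 1 higher. Other mitochondrial acyl-CoA enzymes had 1 higher of 19, uptake and activation 1 higher of 13, and triglyceride storage and lipolysis 1 higher of 15. The 9 other carnitine genes and the 19 transcriptional regulators had 0 called. The smallest p among the regulators was that of Nrip1, a corepressor (-0.38 ± 0.09, edgeR adjusted p 0.0631), followed by Esrrb (0.16 ± 0.05, adjusted p 0.121), and among the carnitine genes that of Slc25a29 (0.25 ± 0.08, adjusted p 0.130), followed by Shmt1 (0.32 ± 0.14, adjusted p 0.256). Lipe, hormone-sensitive lipase (-0.73 ± 0.20, edgeR adjusted p 0.0882), Fabp4, the adipocyte and endothelial carrier (-0.60 ± 0.15, adjusted p 0.0702), and Echdc1 (-0.26, adjusted p 0.114) came next in their lists without passing. Ppargc1a, the coactivator PGC-1α, stood at 140 ± 15.3 and 138 ± 3.04 CPM (SD, n = 4).

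H3K27me3, the Polycomb mark of silenced genes, was recorded in deposited lists of regions unique to each age, with 3433 regions at 68 weeks and 1164 at 12 weeks. Per the authors' links between regions and genes, 0 of the 35 fatty acid oxidation genes was linked to a region in either list, against 4.67% of the genes tested by edgeR. Of the genes around the pathway, Acsl6, Esrrb, Esrrg, Gpam and Pex11a were linked at 68 weeks, and Esrrb also at 12 weeks. The lists give no value per library and hold only differences between the ages, so a gene outside them may still carry the mark at both.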

How the data were processed

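RNA abundance was deposited as raw counts, whole numbers of reads for each gene, as the file headers and the values show. Per the submitters' processing notes, the tools were Trimmomatic 0.36, STAR 2.5.2b, Subread 1.5.2 with featureCounts, DESeq2, MACS3 3.0.0b1, Picard 2.26.2, SAMtools 1.14, Bowtie2 2.4.2 and Trim Galore 0.6.5, none with a role or an order. Strand use and the handling of reads with several matches are not given in the sources used here. Of 49315 genes, 174 had no symbol. The deposited region lists were used only for their gene links. The score the authors deposited for each region has no stated scale and was not used. The build of the region coordinates was not established, so no region position is given.

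The main test was edgeR 4.0.16 under R 4.3.3 (quasi-likelihood, TMM normalization, filterByExpr, age as the only term, Benjamini-Hochberg adjustment over 15947 genes, threshold 0.05). The approximate SE is the absolute log2 fold change over the root of the F statistic, and 95% intervals use the test's degrees of freedom. CPM are counts scaled to the TMM-normalized library size, except summed markers and Ucp1, which are scaled to total counts. DESeq2 1.42.0 was the alternative tool. Other alternatives were RLE and plain library size scaling, no filter and a mean CPM of 1 or more, the replicate number as a block, marker scores as covariates, mitochondrially encoded genes left out, and each library left out. The fits with Ucp1 as a covariate and without 12-week replicates 3 and 4 were added after the data were seen. The fit was tested on simulated data. Between libraries of 1 age the smallest chi-square per degree of freedom was 17.4, above counting noise, so none was the same library deposited again.

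The 35 genes and the lists around them were chosen with earlier results of these data known. Values per library are given for genes called by either tool, the 6 smallest p-values and the main enzymes and regulators of each step, and, of each surrounding list, called genes and the 2 with the smallest p are named. Promoter sequences come from RefSeq, GRCm38.p6.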

Additional observations from a re-analysis of the deposited data

Results flagged for a closer look

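Of 78 groups of 4 libraries checked (the 35 genes, and the 4 ratios, at each age), 4 held a library whose gap to the nearest of the others exceeded 0.829 of the group's range. Chance flags about 1 in 20 such groups. Pdk4 was at 945 CPM in 68-week replicate 1 and at 550 to 612 CPM in the 3 other 68-week libraries. In 12-week replicate 4, Cpt2 was at 298 CPM against 238 to 247 CPM in the others, and Slc27a1 at 230.2 CPM against 153 to 156 CPM. Plin5 was at 126 CPM in 12-week replicate 1 and at 152 to 155 CPM in the other 12-week libraries.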

How the results depend on the processing

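Of the 35 genes, 0 were called under RLE factors, a mean CPM of 1 or more, either marker score, Ucp1 as covariate or without mitochondrially encoded genes. Pdk4 was called lower with plain library size (1 gene in all, -0.79), Pdk4 and Ucp3 with no filter and with DESeq2 (2 genes each), and Ucp3 with the replicate block (1 gene, adjusted p 0.0191). Leaving out 1 library gave 0 to 1 lower, the 1 being Pdk4 without 68-week replicate 1. Without 12-week replicates 3 and 4, 1 was higher (Cpt1b). The members' median log2 fold change moved beyond the libraries' spread with the airway score (-0.13) and the brown adipocyte score (0.29), the cause not being tested, and the scores changed the sign of 11 and 13 uncalled genes. The brown adipocyte score and Ucp1 did not overlap between the ages, so their fits hardly separate age from them. Library size alone moved the median of all genes to -0.07 and of the 35 genes to -0.05.

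Over all genes, edgeR called 256 higher and 195 lower. DESeq2 called 564 and 436 of 16869. The counts were 68 and 20 with the airway score, 2 and 1 with the brown adipocyte score, 29 and 6 with Ucp1, and 139 and 76 without 12-week replicates 3 and 4. Leaving out 1 library gave 117 to 209 higher and 52 to 154 lower. The replicate block gave 112 and 48. Same-numbered libraries had correlations of deviations of -0.25, -0.07, 0.07 and 0.35, so no pairing by number was evident, although these values cannot exclude one. Library size alone gave 176 higher and 248 lower, against 256 and 195. Depth was at least 23599296 counts a library.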
